A study of Cavia porcellus with 12 samples.

Results

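miR-221 and miR-222 were described by every entry of 3 deposited tables whose name ended exactly in the human precursor hsa-mir-221 or hsa-mir-222. Each entry holds 1 sequence, and the entries of 1 miRNA are its isomiRs, called forms here, which differ in length, last bases or start. The rule found 6 of 1610 entries in the table of DOX and DMSO at 1 h, 5 of 1335 in the table of DOX and DMSO at 22 h, and 13 of 4979 in the third table, of DOX at 22 h and DOX at 1 h. Of the 13, 11 had a mean above 0.

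Small RNA sequencing was done on ventricular cardiomyocytes from hearts of adult female Hartley guinea pigs, obtained by Langendorff perfusion and enzymatic digestion. The cells were kept at room temperature with 10 µM doxorubicin (DOX), an anthracycline used against cancer, or with its vehicle DMSO. The 4 groups were DOX 1 h, DMSO 1 h, DOX 22 h and DMSO 22 h, and the sample labels give 3 libraries to each, 12 in all. Reads of guinea pig RNA were aligned to human sequences, so bases that differ between the species may have been lost or misassigned, and freshly isolated adult cells at room temperature are a short-lived model of the heart.

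The genes of miR-221 and miR-222 lie side by side on the X chromosome and are transcribed together. Their 3p strands carry the same seed, the stretch near the 5′ end that pairs with target mRNAs, and the cell cycle inhibitor CDKN1B and the receptor KIT are among their known targets. Both miRNAs are known from endothelial and vascular smooth muscle cells, and miR-222 also from heart muscle under exercise.

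The forms that carry the results are given below as listed in the third table, 5′ to 3′. The capitals mark the 6 first bases that both miRNAs shared, which are part of their known seed, and the ends of the lines show what tells the forms apart.
miR-221 form a: CTACATtgtctgctgggttt
miR-221 form b: CTACATtgtctgctgggtttt
miR-221 form c: CTACATtgtctgctgggtttc
miR-221 form d: CTACATtgtctgctgggtt
miR-221 form e: CTACATtgtctgctgggttta
miR-221 form f: CTACATtgtctgctgggttat
miR-222 form a: CTACATctggctactgggtct
miR-222 form b: CTACATctggctactgggt
miR-222 form c: CTACATctggctactgggtc

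Of the 13 member entries, 10 began with the shared 6 bases. The known mature miRNAs start 5′ of this point, and entries of let-7 were listed in the same way. Of 91 let-7 entries of the first arm with a mean above 0, 86 began with AGGTAG and 0 with TGAGGTAG, the known start of let-7. Start sites were therefore not compared with those of the known mature forms. Form c of miR-221 ends as the human miR-221-3p is annotated, and form b of miR-222 ends as the human miR-222-3p. Counted from the first listed base, form b of miR-221 differed from form c by C21T, form e by C21A, and form f by T20A and C21T. Whether these bases come from the guinea pig gene or were added to the RNA was not tested.

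All reads of both miRNAs stood on 1 arm. The start positions in the entry names were 66 for miR-221 and 70 or 71 for miR-222, which is the 3p arm. An entry of the 5p arm of miR-222, starting at 30, was listed at 0 in the third table, as was an entry of 18 bases starting at 71. No entry of the 5p arm of miR-221 stood under its precursor.

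Both miRNAs were present at low levels in these cells. The authors' mean of normalized reads over both groups of a table, summed over the entries of miR-221, was 157.8 at 1 h and 98.2 at 22 h, and the third table gave 118.2. These sums put miR-221 at place 163 of 243 precursors at 1 h, 165 of 224 at 22 h, and 170 of 287 in the third table. For miR-222 the sums were 53.5 (1 h), 35.1 (22 h) and 42.8 (the third table), at places 193, 192 and 199. The median precursor had 587, 546 and 283 normalized reads in the same tables.

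miR-221 exceeded miR-222 by a similar ratio in each table, 2.95 at 1 h and 2.80 at 22 h, with 2.76 in the third. Form a was the most abundant form of both miRNAs in every table. The mean of miR-221 form a was 85.4 at 1 h and 60.1 at 22 h, with 67.6 in the third table, and that of miR-222 form a was 35.5, 19.7 and 23.4. The tables were normalized separately, so levels are set side by side across them and not tested. The means at 1 h could not be split into libraries, and the authors' own values per side and fold changes were not used. DOX and DMSO were therefore not compared at 1 h.

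**Figure D1:**
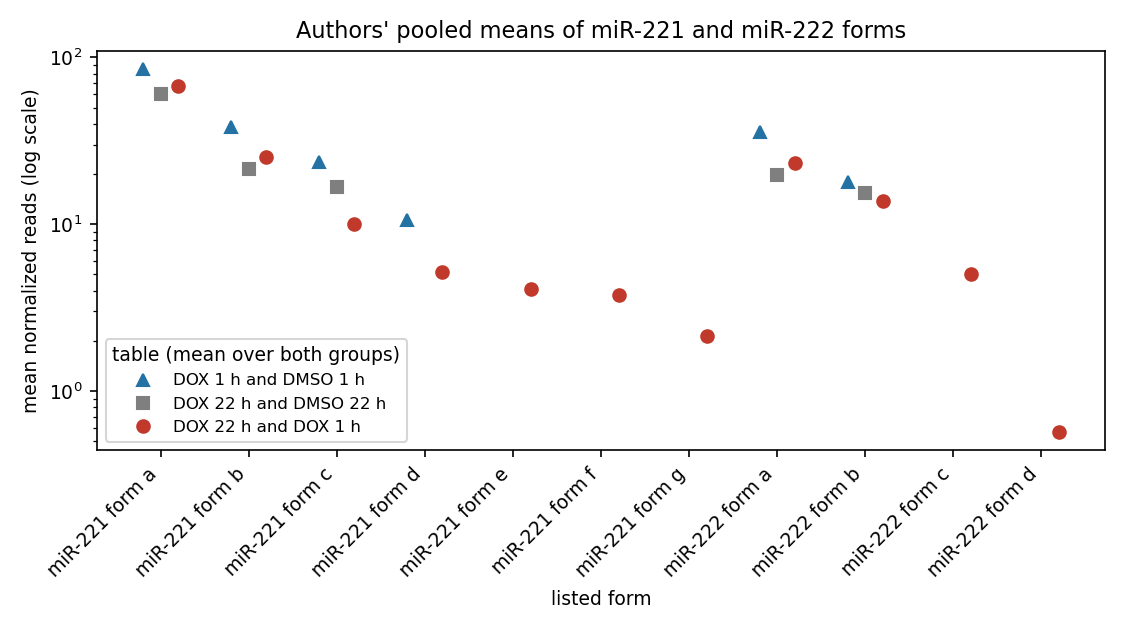
Authors' mean of normalized reads (log scale) for each form of miR-221 and miR-222 with a mean above 0 in the 3 tables, 1 point per table, pooled over both groups and without an error. Form a leads for both miRNAs in each table, and forms e to g of miR-221 and c and d of miR-222 appear only in the third table.

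The means of the other tables could be split into whole reads of 2 libraries each, from the means alone. The reads of 1 library of the 22 h table satisfied the means of the third table in 1052 of 1052 entries, and those of the other library in 132 of 1052. The shared library was taken as DOX 22 h, the only group for which both tables are named, and this naming rests on nothing else. These data thus held 1 set of reads for DOX 22 h, 1 for DMSO 22 h and 1 for DOX 1 h, each taken as 1 library. Whether a set is 1 labelled library or the sum of several was not tested. With 1 library a group, no difference had a replicate check and no p-value was computed. All intervals below are exact 95% intervals that cover counting error only and no spread between libraries. They treat reads as independent, but PCR reads are not independent molecules, so the intervals may be too narrow even for counting error.

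In the DOX 22 h library, miR-221 form a had 78 reads, against 44 in the DMSO 22 h library and 53 in the DOX 1 h library. Form b had 16 reads in DOX 22 h, 26 in DMSO 22 h and 37 in DOX 1 h. Form c had 13, 20 and 6 reads in the same order. Scaled by the size factors that the means hold, form a was highest in DOX 22 h and form c in DMSO 22 h, while form b was lowest in DOX 22 h and near equal in the others, at 29.2 scaled reads in DMSO 22 h and 28.8 in DOX 1 h.

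For miR-222, form a had 25 reads in DOX 22 h, 15 in DMSO 22 h and 21 in DOX 1 h. Form b had 18, 13 and 8 reads in the same order. Both forms of miR-222 had their highest count in DOX 22 h. The libraries differed in depth: by the size factors in the means, 1 read of DMSO 22 h was worth 1.12 reads of DOX 22 h, and 1 read of DOX 1 h was worth 0.778.

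Brought to the depth of the DOX 22 h library, the 3 forms of miR-221 found in both tables summed to 107 reads in DOX 22 h (interval 87.7 to 129), 101 in DMSO 22 h (81.4 to 124) and 74.7 in DOX 1 h (60.5 to 91.2). The 2 such forms of miR-222 summed to 43 scaled reads in DOX 22 h (31.1 to 57.9), 31.5 in DMSO 22 h (20.9 to 45.5) and 22.6 in DOX 1 h (15.1 to 32.4). Over these forms the order was the same for both miRNAs, with DOX 22 h first and DOX 1 h last. The sums leave out forms that the 22 h table does not list, and so forms low at 22 h. For miR-221 they held 96 of the 115 reads of DOX 1 h and 107 of the 119 reads of DOX 22 h. DOX 22 h and DMSO 22 h did not differ beyond counting error for either miRNA. Over the same forms DMSO 22 h exceeded DOX 1 h by 1.36 times for miR-221 (1.01 to 1.83) and by 1.40 times for miR-222 (0.80 to 2.43). Reads of the left-out forms are missing from DOX 1 h and unknown in DMSO 22 h, so these ratios are no measure over all forms. The pair of DMSO 22 h and DOX 1 h was not among the planned comparisons. Its scaling joins size factors of tables that were normalized separately, and the intervals do not cover error in that scaling. In this pair the agent and the time cannot be told apart.

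**Figure D2:**
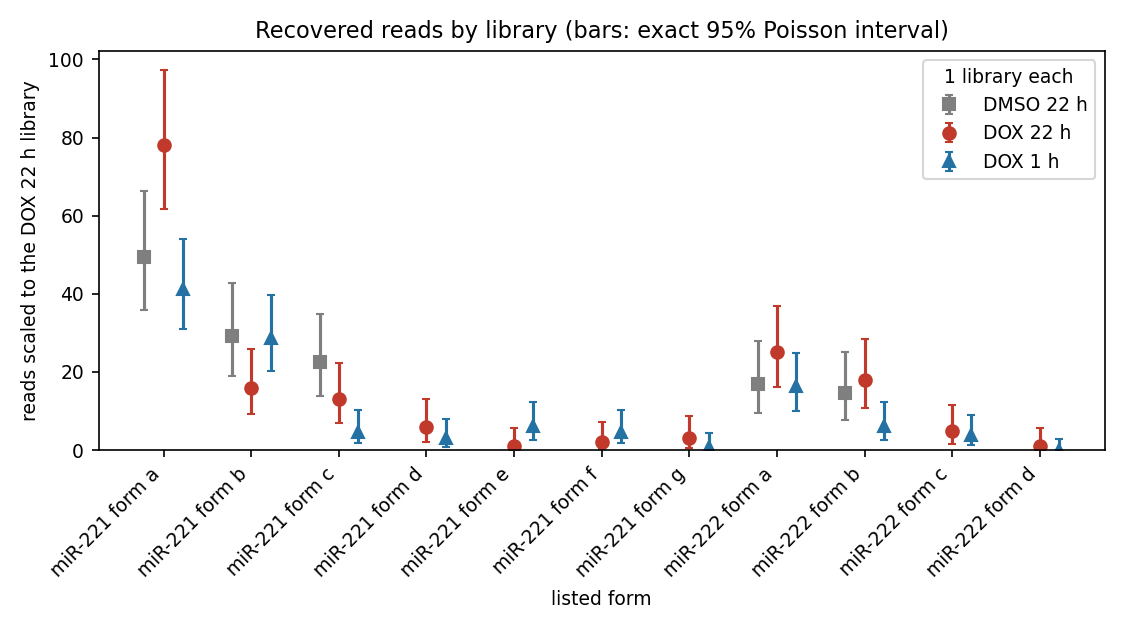
Recovered reads of each form, scaled to the depth of the DOX 22 h library, in the libraries of DMSO 22 h, DOX 22 h and DOX 1 h (1 library each, bars are exact 95% Poisson intervals). The DOX 22 h library is highest for form a of both miRNAs and lowest for miR-221 form b; DMSO 22 h has no point where the 22 h table does not list the form.

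The comparison of DOX 22 h with DMSO 22 h asks what DOX does at the later time. For miR-221 as a whole the libraries were nearly equal, with a log2 ratio of 0.08 (interval −0.34 to 0.50). The forms within it differed in direction. Form a was 1.57 times higher in DOX 22 h, a log2 ratio of 0.65 (0.11 to 1.22). Form b had a log2 ratio of −0.85 (−1.87 to 0.08) and form c one of −0.77 (−1.92 to 0.29), and both intervals included 0.

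miR-222 gave log2 ratios above 0 whose intervals included 0 throughout. Its sum had a log2 ratio of 0.44 (−0.27 to 1.19), form a one of 0.55 (−0.41 to 1.60) and form b one of 0.29 (−0.81 to 1.45). None of the 5 member entries reached a ratio of 2 in either direction. Over all entries with recovered reads and at least 20 reads in the pair, 133 of 1216 did (10.9%), 74 higher and 59 lower in DOX 22 h. The median log2 ratio of all these entries was 0.00. At 5 entries a count of 0 is no sign that the members differed from the rest.

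The comparison of DOX 22 h with DOX 1 h follows the cells over time under DOX. It shares the DOX 22 h library with the comparison above, so the 2 comparisons are not independent. DMSO 22 h and DMSO 1 h were not compared here, and time in culture and time under DOX cannot be told apart. Over all its forms, miR-222 had 49 reads in DOX 22 h and 34 in DOX 1 h, a log2 ratio of 0.88 (0.23 to 1.57). miR-221 had 119 and 115 reads, a log2 ratio of 0.41 (0.03 to 0.79), which was 0.92 for form a alone and −0.28 for the 4 rare forms whose reads the third table alone gives. Scaled reads of miR-222 were thus 1.84 times higher in DOX 22 h and those of miR-221 1.33 times higher. The share of miR-222 among the reads of both miRNAs was 29.2% (49 of 168, interval 22.4 to 36.7) in DOX 22 h and 22.8% (34 of 149, 16.3 to 30.4) in DOX 1 h, and these intervals overlapped.

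By form, miR-221 form a had a log2 ratio of 0.92 (0.40 to 1.45) and form b one of −0.82 (−1.79 to 0.03). Form c, with 19 reads in the pair, had a log2 ratio of 1.42 (−0.02 to 3.16). miR-222 form a had a log2 ratio of 0.61 (−0.28 to 1.52). miR-222 form b, the form that ends as the annotated human miRNA, had one of 1.48 (0.26 to 2.94), which is 2.80 times higher in DOX 22 h (1.20 to 7.69). It was the only one past a ratio of 2 among the 4 member entries with at least 20 reads. Over all such entries 82 of 1190 passed (6.89%), 62 higher and 20 lower, with a median log2 ratio of 0.04. Only entries that the 22 h table also lists reached 20 recovered reads, and 158 others with a mean of at least 10 in the third table are not in these counts. Entries low at 22 h are thus left out, and the split of 62 and 20 is no measure of direction. Among entries with at least 50 reads the share was 3.74%, and miR-222 form b had 26 reads in the pair.

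**Figure D3:**
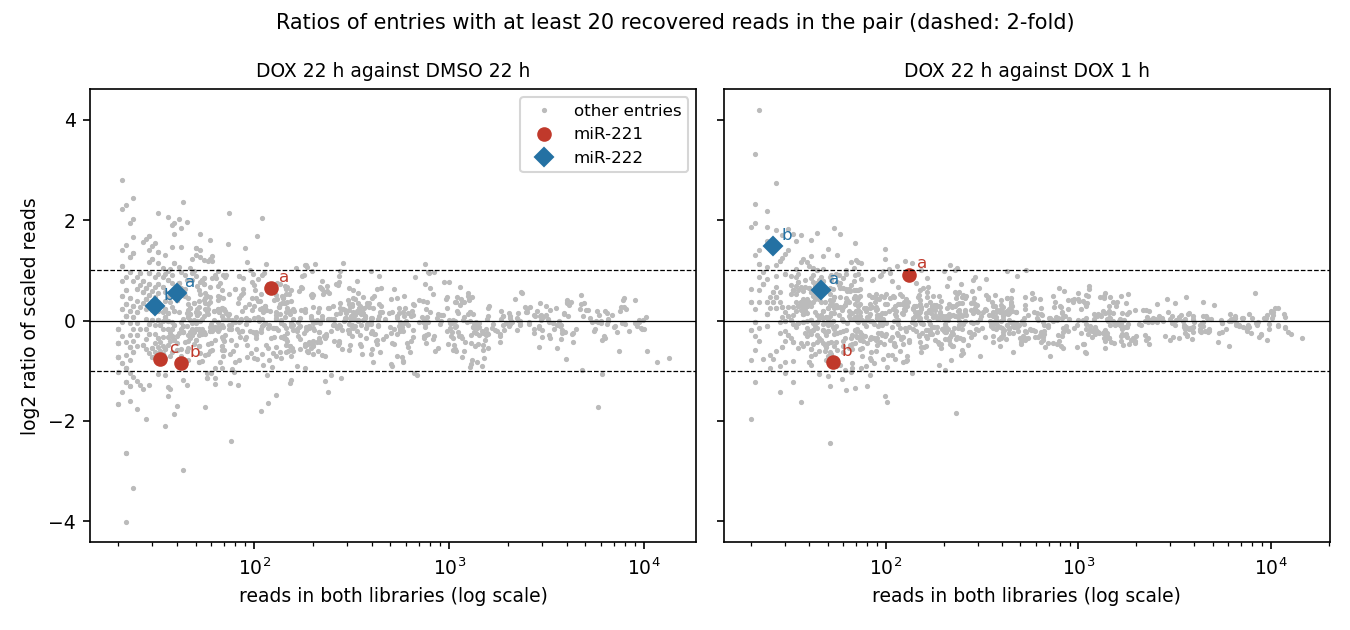
Log2 ratio of scaled reads against the reads of both libraries (log scale) for every entry with recovered reads and at least 20 of them in the pair, in DOX 22 h against DMSO 22 h (left) and DOX 22 h against DOX 1 h (right), with the forms of miR-221 and miR-222 marked by letter. The dashed lines mark a ratio of 2, and of the forms drawn only miR-222 form b on the right lies beyond them; rarer forms are not drawn.

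The rarer forms could not be compared between DOX 22 h and DMSO 22 h. The lowest restored mean in the 22 h table was 10.0, and forms d to g of miR-221 and c and d of miR-222 were not in it. miR-221 form d had 6 reads in DOX 22 h and 4 in DOX 1 h, and a mean of 10.6 at 1 h. Form e had 1 and 8 reads, with a log2 ratio of −2.14 (−8.11 to 0.26), and form f had 2 and 6, with one of −1.02 (−4.56 to 1.26). The 18-base form g had 3 reads and 1 read. miR-222 form c had 5 reads in each library, and form d, which starts 1 base later, had 1 read in DOX 22 h and 0 in DOX 1 h, where the exact upper limit of the count was 2.87 scaled reads.

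The make-up of miR-221 was compared by the share of each form. Form a held 72.9% of the reads of forms a, b and c in DOX 22 h (78 of 107, exact binomial interval 63.4 to 81.0). It held 48.9% in DMSO 22 h (44 of 90, 38.2 to 59.7) and 55.2% in DOX 1 h (53 of 96, 44.7 to 65.4). The interval of DOX 22 h did not overlap that of DMSO 22 h and overlapped that of DOX 1 h. Among all 7 forms of the third table, form a held 65.5% in DOX 22 h (78 of 119, 56.3 to 74.0) and 46.1% in DOX 1 h (53 of 115, 36.8 to 55.6), and these intervals did not overlap. Form b held 16 of 107 reads in DOX 22 h (8.80% to 23.1%), 28.9% in DMSO 22 h (19.8 to 39.4) and 38.5% in DOX 1 h (28.8 to 49.0). Form c held 12.1% (6.63 to 19.9), 22.2% (14.1 to 32.2) and 6.25% (2.33 to 13.1) in the same order. The share of miR-222 form a among forms a and b was 58.1% in DOX 22 h (42.1 to 73.0), 53.6% in DMSO 22 h (33.9 to 72.5) and 72.4% in DOX 1 h (52.8 to 87.3), with overlapping intervals.

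**Figure D4:**
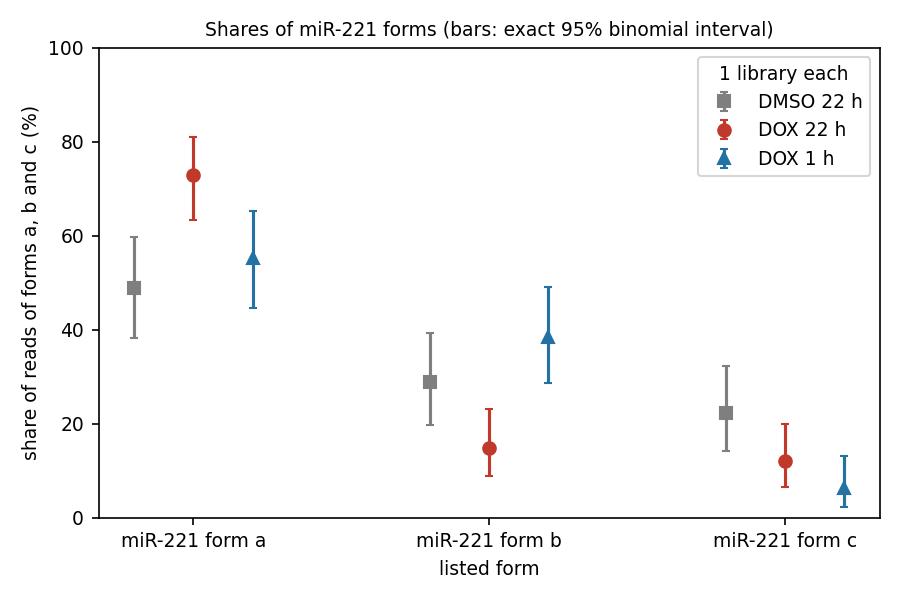
Share of each of forms a, b and c in the reads of these forms of miR-221, in percent, for the libraries of DMSO 22 h, DOX 22 h and DOX 1 h (1 library each, bars are exact 95% binomial intervals). Form a has its highest share, 72.9%, in DOX 22 h, and form b its highest, 38.5%, in DOX 1 h.

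Forms b, e and f of miR-221 depart from form c at their 3′ end, while forms a, d and g are form c cut short. This grouping was made after the values were seen. The departing forms had 19 of 119 reads in DOX 22 h, a share of 16.0% (9.90 to 23.8), and 51 of 115 in DOX 1 h, a share of 44.3% (35.1 to 53.9). Their log2 ratio of DOX 22 h to DOX 1 h was −1.04 (−1.90 to −0.28). The other 4 forms, with 100 and 64 reads, had a log2 ratio of 1.00 (0.54 to 1.48). Because the grouping followed the values, these intervals are no test of it, and taken singly forms b, e and f each had an interval that included 0.

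Forms b and c are form a with 1 base added. The log2 ratio of longer to shorter form was lower in DOX 22 h than in DMSO 22 h by a difference of −1.50 for form b and −1.42 for form c. Both values use form a as the shorter form, so they are not separate differences. For 671 other pairs of entries that differ by 1 added base, the same difference had a median of −0.03 and quartiles of −0.37 and 0.34. These pairs as a whole showed no such difference, and single pairs ranged from −2.60 to 3.01. Against DOX 1 h the difference was −1.74 for form b and 0.50 for form c, beside a median of −0.04 and quartiles of −0.33 and 0.22. The pairs were not matched to those of miR-221 for depth, and no test of miR-221 against them was made.

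Among 214 precursor arms with at least 100 reads over the 3 libraries, 5 were listed for each miRNA by the distance of their 2 log2 ratios. Members and arms entered with the forms that the 22 h table lists, for which the log2 ratio of DOX 22 h to DOX 1 h was 0.52 for miR-221 and 0.92 for miR-222. Nearest to miR-221 were the arm of mir-154 that starts at 52, at a distance of 0.08, that of mir-19b-2 at start 63 (0.08), of mir-106b at start 51 (0.10), of mir-889 at start 50 (0.13) and of mir-499a at start 70 (0.14). Nearest to miR-222 were the arm of mir-1296 that starts at 17, at a distance of 0.19, that of mir-200b at start 58 (0.19), of mir-181a-1 at start 65 (0.28), of mir-324 at start 17 (0.29) and of mir-410 at start 51 (0.35). Each is 1 arm over its recovered entries and does not stand for its precursor as a whole, and of mir-499a 0.57% of the summed mean was recovered. Both sets rest on 3 libraries. The arms of miR-221 and miR-222 were left out of these lists by rule, so neither could be listed for the other.

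The labelled cell type was checked against miRNAs known from the cells of the heart. All 7 cardiomyocyte precursors were above 0 in the third table, led by mir-1-2 with a summed mean of 697593 normalized reads. Precursors known from other cells were also present. mir-143, known from smooth muscle, had the highest sum of all precursors, 1168840, and mir-145 had 21445. Endothelial mir-126 had 194322, which is 1644 times that of miR-221. All 4 fibroblast precursors were above 0, led by mir-199a-1 with 5779, and all 5 blood precursors, led by mir-486-1 with 1097.

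Because miR-221 and miR-222 are known from endothelial and smooth muscle cells, the markers of these cells are given beside them, as scaled reads of the entries whose reads were recovered. These entries held 99.5% of the summed mean of the fibroblast precursors and 92.4% of that of the blood precursors, but 14.9% for mir-126, 1.08% for smooth muscle and 1.03% for cardiomyocytes. The fibroblast precursors had 14485 scaled reads in DOX 22 h, 14353 in DMSO 22 h and 14548 in DOX 1 h, near equal in all. The blood precursors had 1176, 1463 and 1514 in the same order, and their members differed in direction. In DOX 22 h against DOX 1 h, where miR-222 had a log2 ratio of 0.88, that of mir-486-1 was −0.61 and that of mir-451a −0.34. For mir-223 it was −0.29, from 1 recovered entry with 17 and 27 reads. By contrast, mir-142 had 0.50 and mir-144, with 20 and 7 reads, had 1.81.

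The recovered entries of mir-126 had 26155 scaled reads in DOX 22 h, 26520 in DMSO 22 h and 24832 in DOX 1 h. Those of smooth muscle summed to 11224, 13717 and 11476, with 5773, 9378 and 5252 for mir-143 and 5451, 4338 and 6225 for mir-145, which lay in opposite order. Those of the cardiomyocyte precursors summed to 20707, 23265 and 19783. Of these, mir-208a and mir-208b were recovered at over 99% of their means. mir-208a had log2 ratios of 0.02 against DMSO 22 h and 0.27 against DOX 1 h, and mir-208b of −0.47 and −0.16. These figures leave out most of the level of mir-223, mir-126, mir-143, mir-145, mir-1, mir-133a and mir-499a, so how these markers as a whole differed between the libraries is not known. Precursors that share a sequence were counted under each. The part of other cells in the levels of miR-221 and miR-222 was not tested. In such bulk samples, fewer cells of a type and less RNA per cell cannot be told apart.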

How the data were processed

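Libraries were made with the TruSeq Small RNA kit and sequenced on an Illumina HiSeq instrument. The authors aligned reads to human sequences (hg19) in the BaseSpace Small RNA app 1.0 and deposited 3 tables of 2 groups each. The signal used is the authors' deposited mean of normalized reads over both groups. The tables also hold values per side, log2 fold changes with standard errors and p-values of the authors' comparisons, none of which was used.

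The means at 1 h and 22 h had lost their decimal mark, which was restored by the third table's value of that entry for 1506 and 1323 entries. Reads per library were recovered where 1 whole-number solution was possible, in 1216 of 1323 entries of the 22 h table and 1788 of 2369 above 0 in the third, and the method was tested on simulated data. The recovered entries held 474736 reads of DOX 22 h and 440362 of DMSO 22 h in the 22 h table, and 476297 of DOX 22 h and 626032 of DOX 1 h in the third, which are parts of each library. Ratios had 0.5 added to each count. Their intervals are exact conditional binomial, those of levels exact Poisson and those of shares Clopper-Pearson, without added counts. Named were the most abundant entry of each arm, the 5 most abundant of each precursor in the third table, and entries with a ratio of at least 2 at 20 reads or more; forms f and g of miR-221 fell outside this rule and were named after their values were seen, to account for every form. The members and lists were chosen with earlier results of these data known. Python 3.11.15, numpy 2.4.6, scipy 1.17.1 and matplotlib 3.10.9 were used.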

Additional observations from a re-analysis of the deposited data

How the results depend on the processing

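With the most abundant entry alone, the log2 ratio of miR-221 was 0.65 in DOX 22 h against DMSO 22 h and 0.92 in DOX 22 h against DOX 1 h. The summed means were then 85.4, 60.1 and 67.6 for miR-221 and 35.5, 19.7 and 23.4 for miR-222 in the order 1 h, 22 h and the third table, since other forms were left out. With reads recovered from the third table alone, which left 4 rare entries of miR-221, its log2 ratio to DOX 1 h was −0.28. By number of entries, form a made up 33.3% of miR-221 in each library, a value fixed by the number of forms counted whatever their reads. The share of all entries past a ratio of 1.5 was 30.3% against DMSO 22 h and 20.2% against DOX 1 h. The share past a ratio of 2 among entries with at least 50 reads was 5.99% and 3.74%. The other 29 values stayed within their intervals or within 1.5 times, among them those under other scaling, 1 added to each count and restored decimal marks. Entries of the 22 h table only and all forms of the third table were alternatives chosen after seeing the data.

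No paired analysis was possible because the values of these tables carry no replicate number and 1 library stood in each group where reads were recovered. No library was left out in turn, as each group had 1. Counts of 0 to 78 reads a form limit every ratio, and the naming of the DOX 22 h library rests on the names of the tables.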
